A study of Mus musculus with 40 samples.

Results

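Cathepsins are the proteases of the lysosome, and 10 of them were followed across the cortex and the cerebellum of young and aged mice that differed in dietary vitamin E and in Ttpa genotype: Ctsa, Ctsb, Ctsc, Ctsd, Ctse, Ctsh, Ctsk, Ctsl, Ctss and Ctsz. The members were the probes whose gene name on the array equals one of these symbols, which gave 12 probes for the 10 genes out of 55589 probes and 36362 gene names. Ctsa and Ctsd had 2 probes each, and the brighter one stands for the gene unless the second is named.

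RNA of 40 mouse samples was hybridised to 40 one-colour Agilent arrays, 4 arrays in each of 10 groups, and the same 5 conditions were sampled in cortex (the cerebrum, in the study's own wording) and in cerebellum. The mice were on the C57Bl/6 background. WT_2Mo mice were wild-type, 2 months old and on a normal diet with 36 mg of alpha-tocopherol per kg. WT_29Mo mice were 29 months old on the same diet, and WT_29Mo_noVE mice were 29 months old on a vitamin E-deficient diet. TTPKO mice were Ttpa-/-, lacking alpha-tocopherol transfer protein, the liver protein that loads alpha-tocopherol into the circulation. They were also 29 months old, and were fed either the deficient diet (TTPKO_29Mo_noVE) or a diet supplemented with 600 mg of alpha-tocopherol per kg (TTPKO_29Mo_VE). No group held young Ttpa-/- mice, and Ttpa was absent in every tissue rather than in the brain alone. The labels do not say whether a cortex and a cerebellum came from the same mouse.

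Cathepsins are made as inactive precursors and are activated in the acid lumen of endosomes and lysosomes. Most are cysteine proteases of the papain family (Ctsb, Ctsc, Ctsh, Ctsk, Ctsl, Ctss and Ctsz), Ctsd and Ctse are aspartic proteases, and Ctsa is a serine carboxypeptidase. In the brain, neurons depend on Ctsd, Ctsb and Ctsl for the turnover of lysosomal protein, whereas Ctss, Ctsz, Ctsh and Ctsc are known mainly from microglia and other phagocytes. The cysteine cathepsins are held in check by cystatins, and a transcription factor family that reads the CLEAR element in promoters drives many lysosomal genes.

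Values are log2 signals relative to the 75th percentile of the array, so that 0 is that percentile, 1 unit is a doubling, and a negative value is a dimmer probe. Levels are compared only for 1 probe between groups and never between probes. A gene was called where limma's adjusted p was under 0.05 and the difference exceeded 1.5-fold. The whole tissue was measured, so a change in the number of cells that carry a transcript and a change in its amount per cell cannot be told apart.

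Between 51.4% and 61.4% of probes were well above background on an array, the 75th percentile of the raw signal lay between 365 and 925, and arrays of 1 group correlated with r of 0.973 to 0.993 across probes. The brighter of 2 Ttpa probes was above background on all 12 wild-type cerebellum arrays, at -3.01 ± 0.26, -3.34 ± 0.26 and -3.78 ± 0.44 in the young, aged and aged deficient groups (SD, n = 4 each). Of the Ttpa-/- cerebellum arrays, 0 of 4 deficient and 1 of 4 supplemented ones had this probe above background. The second Ttpa probe passed background on 1 of the 40 arrays, in the deficient Ttpa-/- cerebellum group. The cortex gives no check of the genotype, since the brighter probe passed background there on 1 of 4 deficient wild-type arrays and on 0 of 4 in each other group. The markers matched the region labels: Emx1 was above background on none of the young cerebellum arrays, and Gabra6, Cbln3 and Barhl2 on none of the young cortex arrays. The summed linear level of 9 choroid plexus markers ran from 2.99 to 137 within the young cortex group and from 9 to 254 within the young cerebellum group. 4 arrays lay over 3-fold from their group's median in that sum, namely young cortex replicate 4, aged cortex replicate 4, deficient Ttpa-/- cortex replicate 1 and young cerebellum replicate 1, and values without them are given where a call differed. 1 of the 5 slides carried both wild-type cortex ages, whereas young and aged cerebellum lay on separate slides, so that slide and age cannot be told apart in cerebellum.

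The sequences upstream of 4 of the cathepsins that were called higher in aged cerebellum are shown as a description. They were picked by that call in these data, and shared regulation was not tested. RefSeq promoter windows (GRCm38.p6) were held for 7 of the 10 genes, in 8 windows, and for the 250 bases before each start they were searched on both strands for CACGTG, the E-box core of the CLEAR element, and for GAGGAAGT, a PU.1-type ETS site whose reverse complement is ACTTCCTC. The letters found are in capitals and each sequence runs 5′ to 3′ along its gene.
Ctss, chr3:95526536-95526785, plus strand: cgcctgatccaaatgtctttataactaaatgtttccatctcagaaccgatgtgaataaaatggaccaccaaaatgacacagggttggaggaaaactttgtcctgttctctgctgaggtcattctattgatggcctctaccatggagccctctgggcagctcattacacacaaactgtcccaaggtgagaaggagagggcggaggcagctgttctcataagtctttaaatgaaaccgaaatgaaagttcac
Ctsz, chr2:174439040-174439289, minus strand: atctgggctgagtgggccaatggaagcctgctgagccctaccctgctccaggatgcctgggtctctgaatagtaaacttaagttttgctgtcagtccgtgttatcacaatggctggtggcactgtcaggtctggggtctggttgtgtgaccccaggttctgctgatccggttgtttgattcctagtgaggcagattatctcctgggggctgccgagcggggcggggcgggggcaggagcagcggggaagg
Ctsd, chr7:142387828-142388077, minus strand: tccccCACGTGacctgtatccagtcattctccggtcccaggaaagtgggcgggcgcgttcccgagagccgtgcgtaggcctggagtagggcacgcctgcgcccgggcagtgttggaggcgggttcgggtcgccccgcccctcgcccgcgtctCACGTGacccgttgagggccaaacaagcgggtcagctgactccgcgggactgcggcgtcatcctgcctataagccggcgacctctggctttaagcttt
Ctsc, chr7:88277835-88278084, plus strand: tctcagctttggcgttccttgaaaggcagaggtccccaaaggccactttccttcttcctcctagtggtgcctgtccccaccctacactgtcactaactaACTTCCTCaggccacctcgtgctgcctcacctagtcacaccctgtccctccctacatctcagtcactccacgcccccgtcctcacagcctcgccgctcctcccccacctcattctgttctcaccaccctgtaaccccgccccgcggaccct
CACGTG occurred in 6.02% of 32851 promoter windows of this length and in 3 cathepsins. Ctsd held 2 copies, 245 to 240 and 98 to 93 bases before its start, Ctsa held 1 at 12 to 7 bases, and Ctsl held 1 at 236 to 231 bases. GAGGAAGT occurred in 2.44% of the windows and in 1 cathepsin, Ctsc, on the reverse strand 151 to 144 bases before the start. The Ctss and Ctsz windows held neither run of letters, although in Ctss a reverse copy of GAGGAAGT began 2 bases before the start and ran past it. These are matches of letters, not measured binding. Ctsb, Ctse and Ctsh were not in the promoter table.

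Probe positions are those of the array files, on mm9. Ctss was read at chr3:95360245-95360304 and Ctsk, nearby on the same chromosome, at chr3:95313165-95313224. The other cysteine cathepsins were read at chr2:174253228-174253287 (Ctsz), chr9:89970828-89970887 (Ctsh), chr7:95458436-95458495 (Ctsc), chr13:64465287-64465346 (Ctsl) and chr14:63761906-63761965 (Ctsb). The brighter Ctsa probe lay at chr2:164665023-164665082 and the brighter Ctsd probe at chr7:149561962-149562021. The second Ctsd probe is shown because it gave a call that the brighter probe did not: its 60 bases match chr7:149566847-149568505 on the minus strand, a stretch of 1659 bases, and so join sequence on both sides of an intron.
Ctsd second probe: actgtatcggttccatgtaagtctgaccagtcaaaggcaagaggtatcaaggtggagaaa

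**Figure D1:**
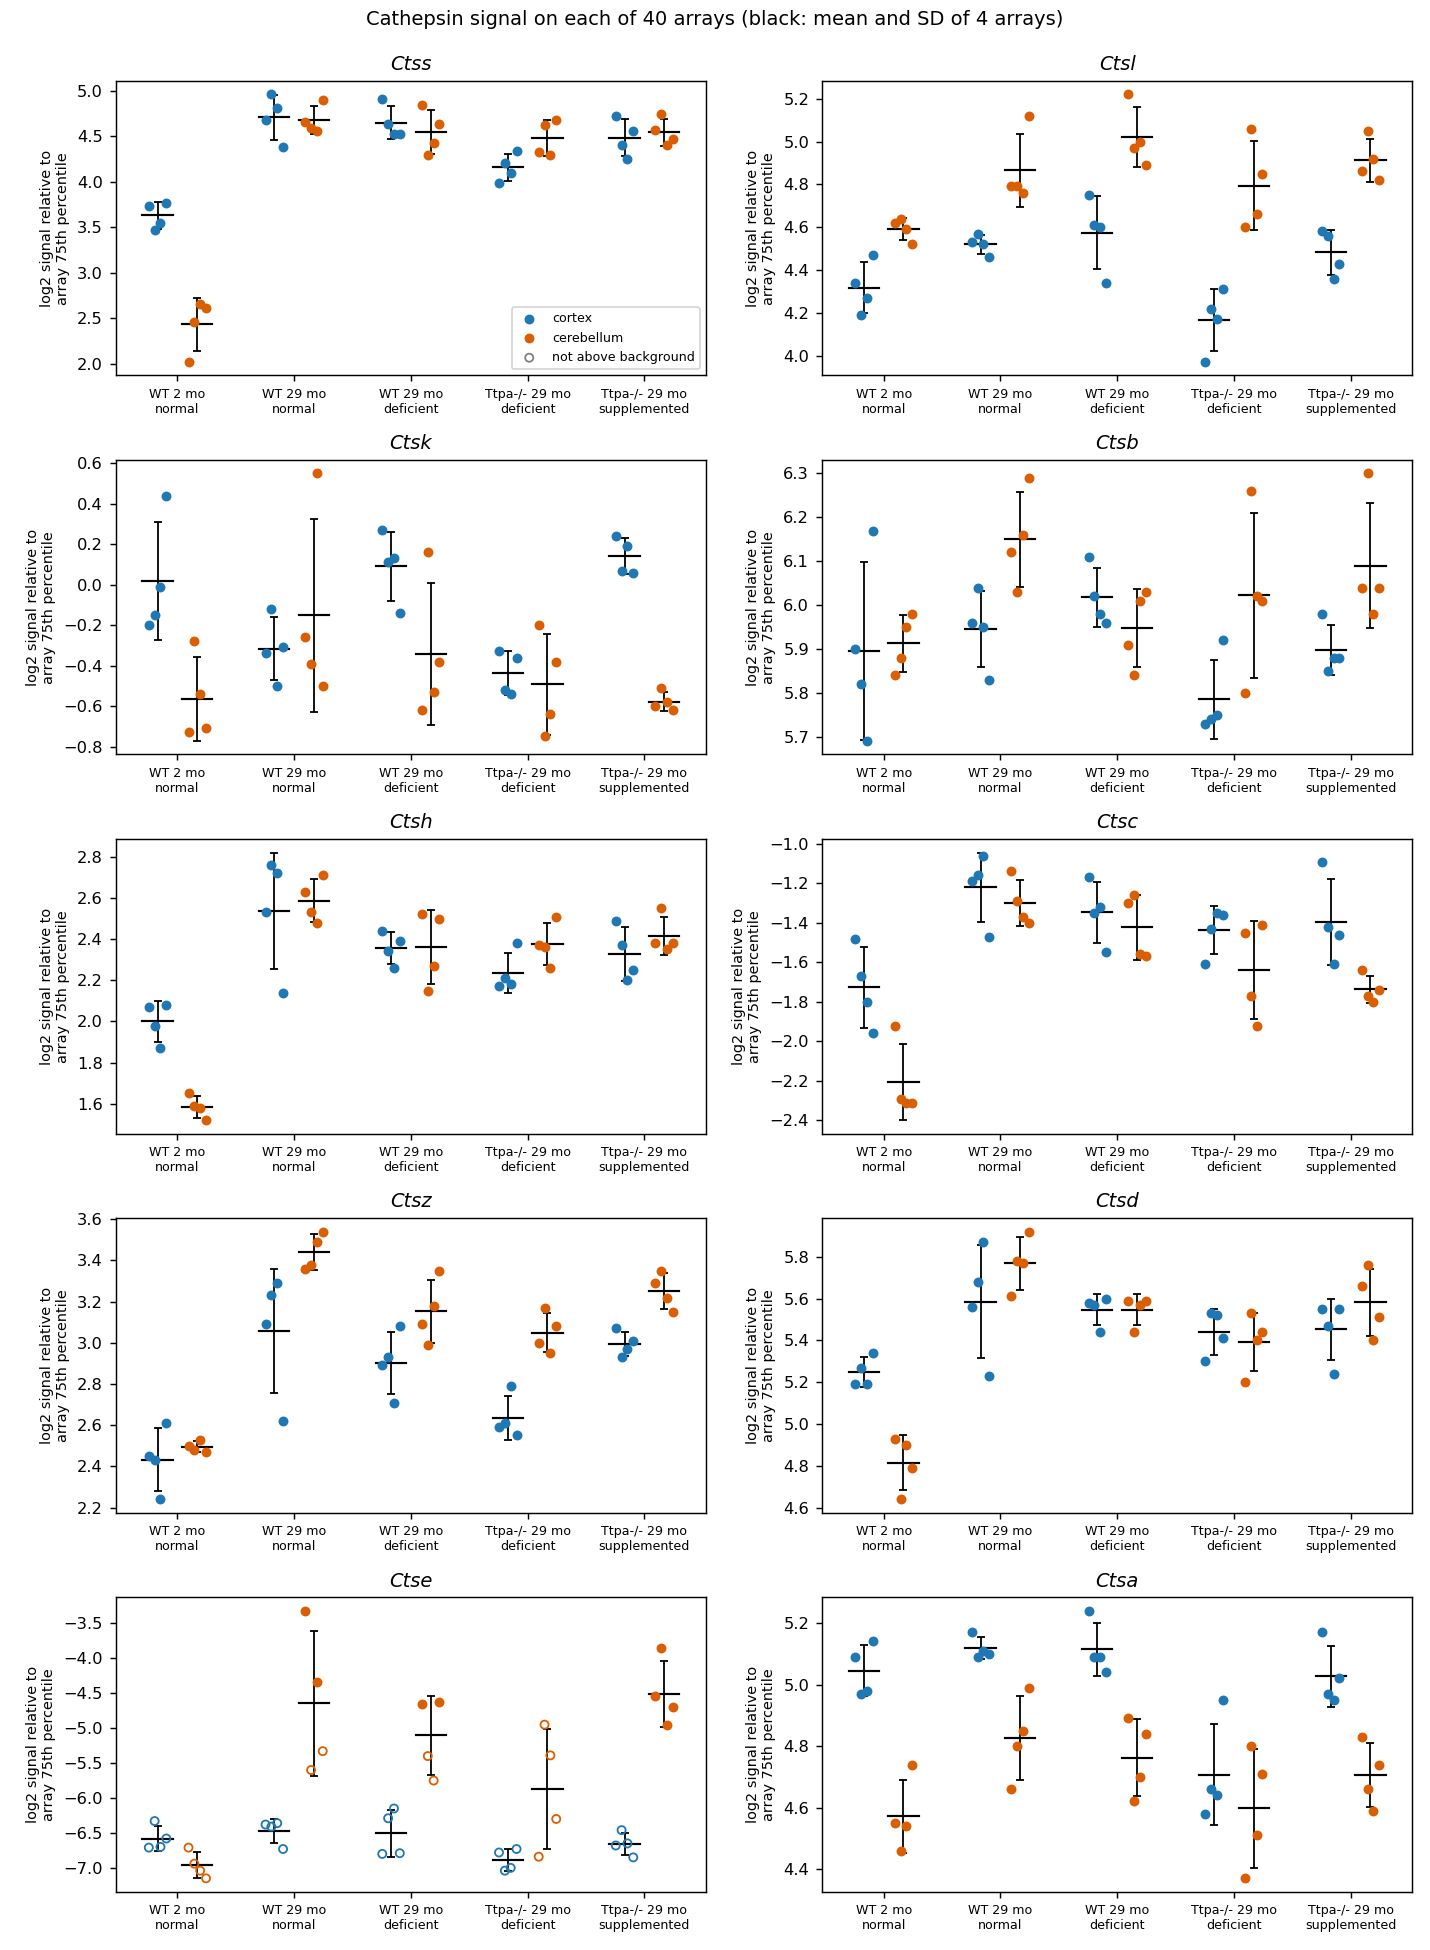
Log2 signal of each cathepsin relative to the 75th percentile of the array (vertical axis) in the 10 groups (horizontal axis), with 1 point per array and a bar at the mean of 4. The young cerebellum arrays of Ctss lie between 2.02 and 2.66, under every other array of that gene.

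In the cerebellum, 5 of the 10 cathepsins were called higher in aged than in young wild-type mice fed the normal diet, namely Ctss, Ctsh, Ctsd, Ctsz and Ctsc, by 1.88-fold to 4.72-fold, and none was called lower. Of all 30627 probes tested there, 3.99% were called higher. In the cortex, where the same comparison was made within a slide, Ctss and Ctsz were called higher, against 1.59% of 28043 probes. Without the fold threshold the counts were 5 in cerebellum, against 6.94% of probes, and 4 in cortex (Ctss, Ctsz, Ctsh and Ctsc), against 2.76%. Young and aged arrays did not overlap for 8 of the 10 genes in cerebellum and for 4 of the 10 in cortex. The aged arrays were the higher ones in each case. The 8 include Ctse, which was mostly at background and was not tested there. The shares of tested probes, which leave Ctse out, were 9.87% in cerebellum and 6.88% in cortex. Over the 9 cathepsins tested, the median change was 0.91 on the log2 scale in cerebellum and 0.34 in cortex, beside -0.01 and -0.03 over all tested probes.

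Ctss, an elastinolytic cysteine protease of microglia and macrophages that trims the invariant chain of MHC class II, had the largest change of the 9 tested. Its 4 young cerebellum arrays read 2.02, 2.46, 2.66 and 2.61 on the log2 scale, and its aged ones 4.66, 4.59, 4.56 and 4.90. The lowest aged array was thus far above the highest young one. The difference was 2.24 ± 0.14 (SE), or 4.72-fold, with a 95% interval of 1.95 to 2.53 and a limma adjusted p of 2.86e-13. In cortex the young arrays of Ctss read 3.73, 3.47, 3.55 and 3.77, and the aged ones 4.68, 4.96, 4.81 and 4.38. The cortical groups did not overlap either, and the difference was 1.08 ± 0.14, or 2.11-fold (95% interval 0.78 to 1.37, limma adjusted p = 7.3e-06).

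Young Ctss levels differed by region and aged ones did not pass the test. The mean was 3.63 ± 0.14 in young cortex and 2.44 ± 0.29 in young cerebellum (SD, n = 4), a gap of 1.19 or 2.28-fold (limma adjusted p = 1.16e-08). At 29 months the means were 4.71 ± 0.25 and 4.68 ± 0.16, a difference of 0.03 (95% interval -0.26 to 0.32, adjusted p = 0.881). The increase with age in Ctss was accordingly smaller in cortex than in cerebellum, by 1.16 ± 0.20 (SE) on the log2 scale in the interaction term (95% interval -1.58 to -0.75, adjusted p = 0.000922). With median scaling the Ctss term was -1.14 and was not called (adjusted p = 0.0565). When ordered by mean, the 7 highest groups of Ctss were aged and ran from 4.71 down to 4.48, with each overlapping the next. Deficient Ttpa-/- cortex followed at 4.16, then young cortex at 3.63 and young cerebellum at 2.44, and neither of the last 2 overlapped the group before it.

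Ctsz, also called cathepsin X, is a carboxypeptidase of the phagocyte lysosome. In cerebellum its young arrays read 2.5, 2.48, 2.53 and 2.47, and its aged arrays 3.36, 3.38, 3.49 and 3.54. The young arrays spanned little and lay well under all aged ones, and the difference was 0.95 ± 0.10, or 1.93-fold (limma adjusted p = 4.01e-08). In cortex the young arrays of Ctsz read 2.45, 2.43, 2.24 and 2.61, and the aged ones 3.09, 3.23, 3.29 and 2.62. The highest young array, at 2.61, and the lowest aged array, at 2.62, all but met. The difference of 0.63 ± 0.10, or 1.54-fold, was close to the threshold (adjusted p = 0.000199), and without replicate 3 of the aged group it was 0.55 and no longer called. Ctsz was likewise not called with median scaling, with the compared groups fitted alone or without aged replicate 2 or young replicate 3, and its call was also lost with the slide as a block.

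Ctsh, an aminopeptidase with some endopeptidase activity, read 1.65, 1.59, 1.58 and 1.52 in young cerebellum and 2.63, 2.53, 2.48 and 2.71 in aged cerebellum. Its difference was 1.0 ± 0.10, or 2.0-fold (95% interval 0.80 to 1.21, limma adjusted p = 7.1e-09). Young cortex read 2.07, 1.98, 1.87 and 2.08 and aged cortex 2.53, 2.76, 2.72 and 2.14 for Ctsh. The cortical difference of 0.54 passed the test (adjusted p = 0.000931) but at 1.45-fold stayed under the fold threshold. Aged cortex replicate 4 was the lowest of the aged arrays of Ctsh, and without it the difference was 0.67 (adjusted p = 8.84e-06) and was called. Without the arrays apart in choroid plexus markers it was 0.70 (adjusted p = 3.1e-05), also called.

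Ctsc, or dipeptidyl peptidase 1, activates granule serine proteases by trimming their ends. It read -1.92, -2.29, -2.31 and -2.31 in young cerebellum and -1.14, -1.29, -1.37 and -1.40 in aged cerebellum. The aged arrays were all higher, by 0.91 ± 0.13 or 1.88-fold on average (limma adjusted p = 3.14e-06). In cortex, Ctsc read -1.48, -1.67, -1.80 and -1.96 in young and -1.19, -1.16, -1.06 and -1.47 in aged mice. The highest young array and the lowest aged array differed by almost nothing, and the mean difference of 0.51 ± 0.13 passed the test at 1.42-fold (adjusted p = 0.0138). Without aged cortex replicate 4 it was 0.59 (adjusted p = 0.00625) and was called.

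Ctsd, the main aspartic protease of the lysosome, differed between the regions. In cerebellum its young arrays read 4.93, 4.64, 4.90 and 4.79 and its aged arrays 5.61, 5.78, 5.77 and 5.92, with no overlap. The difference was 0.96 ± 0.10, or 1.94-fold (95% interval 0.75 to 1.17, limma adjusted p = 3.24e-08). The second Ctsd probe, the one across the intron, read 2.22, 1.79, 1.93 and 1.86 in young and 2.60, 2.90, 2.85 and 3.14 in aged cerebellum, a difference of 0.92 ± 0.17 (adjusted p = 0.000241). In cortex the brighter Ctsd probe read 5.19, 5.27, 5.19 and 5.34 in young and 5.56, 5.68, 5.87 and 5.23 in aged mice. Aged cortex replicate 4 fell inside the young range, and the difference of 0.34 ± 0.10 did not pass the test (adjusted p = 0.0567). The increase of Ctsd with age was smaller in cortex than in cerebellum by 0.62 ± 0.15 (adjusted p = 0.0189), whereas on the second probe the same term was -0.56 (adjusted p = 0.316).

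Ctse, the other aspartic cathepsin, was at the edge of detection. It was above background on 8 of the 40 arrays, all from aged cerebellum: 2 of 4 on the normal diet, 2 of 4 deficient wild-type and 4 of 4 supplemented Ttpa-/-. Young cerebellum read -6.71, -6.94, -7.04 and -7.15, not well above background on any array, and aged normal-diet cerebellum -3.32, -5.60, -4.34 and -5.33. Every aged array was higher, but the spread among them was wide (SD 1.03, n = 4). The aged and young cerebellum means of Ctse were -4.65 and -6.96. With the lowest signal well above background in the place of the young arrays, the aged mean was 1.1-fold higher. This is no firm bound, since that mean rests on aged arrays of which only 2 of 4 were above background. Ctse was not tested there, because neither group had it above background on all 4 arrays. In cortex Ctse was not well above background on any array, and the readings lay between -7.04 and -6.15.

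The 4 remaining cathepsins were not called with age in either region. Ctsl, a broad cysteine endopeptidase, differed by 0.27 in cerebellum (limma adjusted p = 0.076) and 0.20 in cortex (adjusted p = 0.333). Ctsb, which cuts both inside chains and at their carboxy ends, differed by 0.24 (adjusted p = 0.0884) in cerebellum and 0.05 (adjusted p = 0.875) in cortex. For Ctsa, which also shields beta-galactosidase and neuraminidase, the values were 0.26 (adjusted p = 0.0681) and 0.07 (adjusted p = 0.821). The young and aged cerebellum arrays of Ctsl and Ctsb did not overlap, with the aged arrays higher. Ctsk, best known as the collagenase of osteoclasts, went in different directions without passing the test, at 0.42 in cerebellum (adjusted p = 0.131) and -0.34 in cortex (adjusted p = 0.367).

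In the interaction between age and region, Ctss and Ctsd were called and each had the smaller increase in cortex, as 1.0% of all probes did. The estimate was below 0 for all 9 cathepsins tested, with values of -0.75 for Ctsk (adjusted p = 0.131), -0.47 for Ctsh (adjusted p = 0.0961), -0.40 for Ctsc (adjusted p = 0.341) and -0.32 for Ctsz (adjusted p = 0.367). Of all 31372 probes tested for this term, 45.8% were above 0. For Ctsk the term joins a value of -0.34 in cortex and 0.42 in cerebellum, neither of which passed the test. The aged cerebellum values lie on another slide than the young ones, and what this adds to the term was not tested. Without the 4 arrays that stood apart in choroid plexus markers, Ctsd was at -0.51 (adjusted p = 0.0802) and no longer called. The Ctsd term kept its call under 20 of 28 settings (-0.71 to -0.50), and was also lost with median scaling, array weights, the compared groups alone or the mean of both probes, and without aged cortex replicate 4, young cerebellum replicate 2 or aged cerebellum replicate 4.

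**Figure D2:**
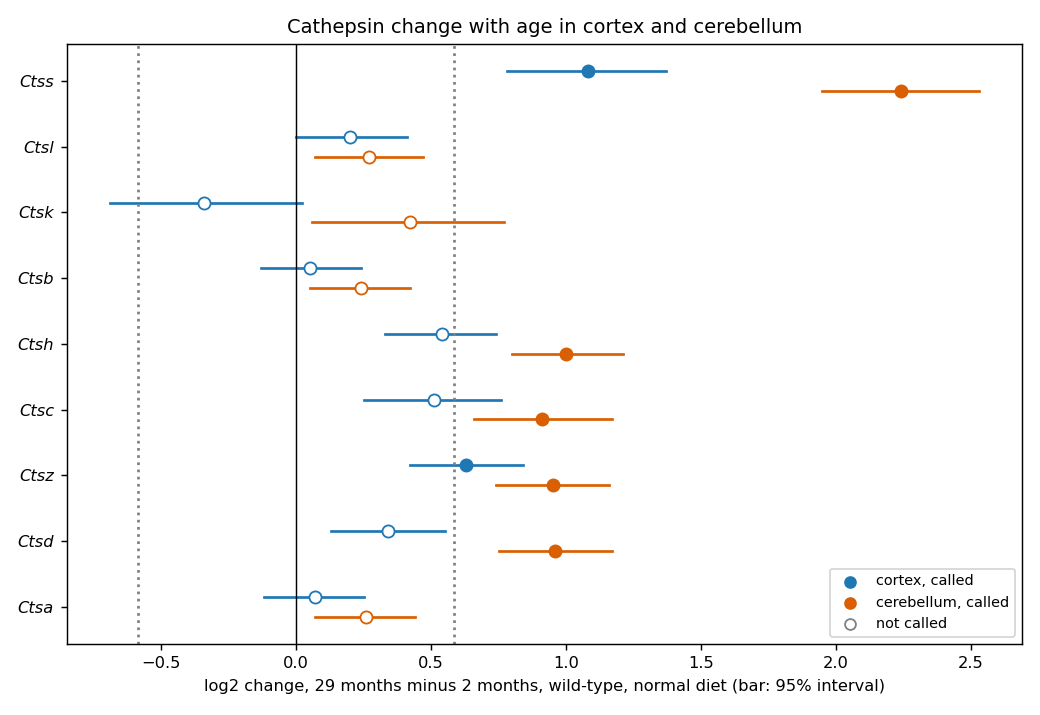
Log2 difference (29 months minus 2 months, normal-diet wild-type, horizontal axis) for each of the 9 tested cathepsins in cortex and cerebellum, with 95% intervals from limma, filled points where called and dotted lines at 1.5-fold. Ctss has the largest difference of the genes drawn in both regions, 1.08 in cortex and 2.24 in cerebellum.

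Between cortex and cerebellum, 2 cathepsins were called at 2 months and 0 at 29 months. At 2 months Ctss and Ctsk were called higher in cortex, as 19.1% of all probes were, and 6 of the brighter probes were higher without the fold threshold, against 32.6% of all probes. Ctsk read -0.20, -0.15, -0.01 and 0.44 in young cortex and -0.73, -0.28, -0.54 and -0.71 in young cerebellum, a difference of 0.59 or 1.5-fold (limma adjusted p = 0.00422). Without the 4 arrays apart in choroid plexus markers it was 0.39 (adjusted p = 0.0945). Ctsc, Ctsd and Ctsh were higher in young cortex by 0.48, 0.43 and 0.41, and without the choroid plexus arrays Ctsc was at 0.66 (adjusted p = 8.15e-05) and was called, whereas Ctsl was lower there by 0.28 (adjusted p = 0.0166). The brighter Ctsa probe, counted among the 6, was at 0.48 and the second at -0.31 (adjusted p = 0.0227), so no direction is given for Ctsa. Ctsb and Ctsz differed by -0.02 and -0.07. At 29 months no cathepsin was called between the regions, where 33.6% of probes were called in either direction. Ctsa was higher in cortex by 0.29 (adjusted p = 0.00758) on its brighter probe, with -0.06 on the second, and Ctsl and Ctsz were lower in cortex, at -0.34 (adjusted p = 0.00387) and -0.39 (adjusted p = 0.00196). These 3 of 9 tested genes compare with 56.4% of all probes that passed without the fold threshold. Young cortex and young cerebellum lay on different slides, as did the aged pair.

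No cathepsin was called in any comparison of diet or Ttpa genotype at 29 months on its brighter probe. Between the deficient and the normal diet in wild-type mice, the median differences over the 9 tested cathepsins were -0.04 in cortex and -0.20 in cerebellum. Of all probes, 0.223% and 1.27% were called. The medians over all tested probes were 0.01 and -0.01, and median scaling moved that of all probes in cerebellum by -0.18. In cerebellum both diet groups shared a slide. The cortical ones lay on different slides, so slide and diet cannot be told apart in cortex. The deficient wild-type arrays of Ctsz there read 3.09, 2.99, 3.18 and 3.35 and the normal-diet ones 3.36, 3.38, 3.49 and 3.54. The Ctsz groups did not overlap, but the difference of -0.29 did not pass the test (adjusted p = 0.0966). Ctsb at -0.20 (adjusted p = 0.185) and Ctsd at -0.22 (adjusted p = 0.208) were also without overlap, and neither passed. Of all probes, 9.96% were lower without overlap in this comparison.

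Deficient Ttpa-/- cortex had the lowest mean of the 4 aged cortical groups for all 9 tested cathepsins. The share of all probes with their lowest mean in that group was not computed. Against normal-diet wild-type cortex, all 9 estimates were below 0, with a median of -0.30, and 5 cathepsins were lower without the fold threshold, against 9.56% of all probes. Of all tested probes, 46.6% were above 0 and 4.75% were called in either direction. Ctss read 3.99, 4.21, 4.10 and 4.34 in deficient Ttpa-/- cortex, each below all of the normal-diet wild-type arrays given above, at -0.55 (limma adjusted p = 0.00784). Ctsa read 4.58, 4.66, 4.64 and 4.95 beside 5.17, 5.09, 5.11 and 5.10, at -0.41 (adjusted p = 0.0023), but its second probe differed by only -0.06 (adjusted p = 0.762). Ctsl read 3.97, 4.22, 4.17 and 4.31 beside 4.53, 4.57, 4.52 and 4.46, without overlap, at -0.35 (adjusted p = 0.0123). Ctsz was at -0.42 (adjusted p = 0.00488) and Ctsh at -0.30 (adjusted p = 0.0331). Without the 4 arrays apart in choroid plexus markers, Ctss was at -0.60 (adjusted p = 0.00861) and was called lower.

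The same deficient Ttpa-/- cortex arrays enter 2 further comparisons, so their values are given side by side. Against deficient wild-type cortex, 4 cathepsins were lower without the fold threshold (7.45% of probes, with 3.07% called): Ctsk at -0.53 (adjusted p = 0.0408), Ctss at -0.49 (adjusted p = 0.0225), Ctsa at -0.41 (adjusted p = 0.00428) and Ctsl at -0.41 (adjusted p = 0.00761). Against supplemented Ttpa-/- cortex, 4 were lower as well (6.76% of probes, with 3.31% called): Ctsk at -0.58 (adjusted p = 0.0244), Ctsz at -0.36 (adjusted p = 0.0195), Ctsa at -0.32 (adjusted p = 0.0176) and Ctsl at -0.31 (adjusted p = 0.0309). Ctsk read -0.33, -0.52, -0.54 and -0.36 in deficient Ttpa-/- cortex, and 0.24, 0.07, 0.19 and 0.06 in supplemented Ttpa-/- cortex. Those Ctsk groups were far apart for their spread, and without the arrays apart in choroid plexus markers the difference was -0.61 (adjusted p = 0.0451) and was called. In all 3 comparisons the deficient Ttpa-/- cortex arrays were alone on their slide among the groups compared, so slide and condition cannot be told apart.

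In cerebellum, deficient Ttpa-/- mice had lower Ctsz and Ctsd than normal-diet wild-type mice, at -0.39 (limma adjusted p = 0.0111) and -0.38 (adjusted p = 0.0145). The 2 genes compare with 6.41% of probes lower without the fold threshold and 4.46% called. As in cortex, all 9 estimates of this comparison were below 0, with a median of -0.23. Of all probes tested in it, 46.2% were above 0. Ctsd read 5.20, 5.53, 5.40 and 5.44 against 5.61, 5.78, 5.77 and 5.92 on the brighter probe, with no overlap. Its second probe read 2.22, 2.52, 2.36 and 1.51 against 2.60, 2.90, 2.85 and 3.14, a difference of -0.72 that was called lower (adjusted p = 0.00498). In supplemented Ttpa-/- cerebellum, Ctsc was lower than in normal-diet wild-type cerebellum by 0.44 (adjusted p = 0.0166), the 1 gene that passed where 7.07% of probes were lower without the fold threshold and 4.91% were called. Ctsc there read -1.64, -1.77, -1.80 and -1.74, all under the wild-type arrays. With both genotypes on the deficient diet, the cerebellar median was -0.15, where 4.94% of probes were called. Wild-type and Ttpa-/- cerebellum lay on different slides, so slide and genotype cannot be told apart in these 3 comparisons. Against normal-diet wild-type mice the diet differed as well, and it cannot be told apart from the genotype either. Between deficient and supplemented Ttpa-/- cerebellum, which shared a slide, the median was -0.09 and 0.343% of probes were called. Ctse had means of -4.51 in supplemented and -5.87 in deficient Ttpa-/- cerebellum, and did not pass the test (limma adjusted p = 0.0581). It was tested there only because the supplemented group had it above background on 4 of 4 arrays, against 0 of 4 deficient ones. The groups overlapped, with the lowest supplemented array at -4.96 and the highest deficient one at -4.95. With the lowest signal well above background in the place of dimmer deficient arrays, the supplemented mean was 1.17-fold higher.

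In cortex, supplemented Ttpa-/- mice differed little from wild-type mice. The median over the cathepsins was -0.09 against the normal-diet group, which lay on another slide, and 0.0920% of probes were called. It was also -0.09 against the deficient group on the same slide, where 0.0316% were called. Ctsk was the exception in range: its supplemented Ttpa-/- arrays were all above the normal-diet wild-type arrays, which read -0.34, -0.12, -0.50 and -0.31. The difference of 0.46 did not pass the test (limma adjusted p = 0.377), and 863 of 28268 tested probes were likewise higher without overlap.

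**Figure D3:**
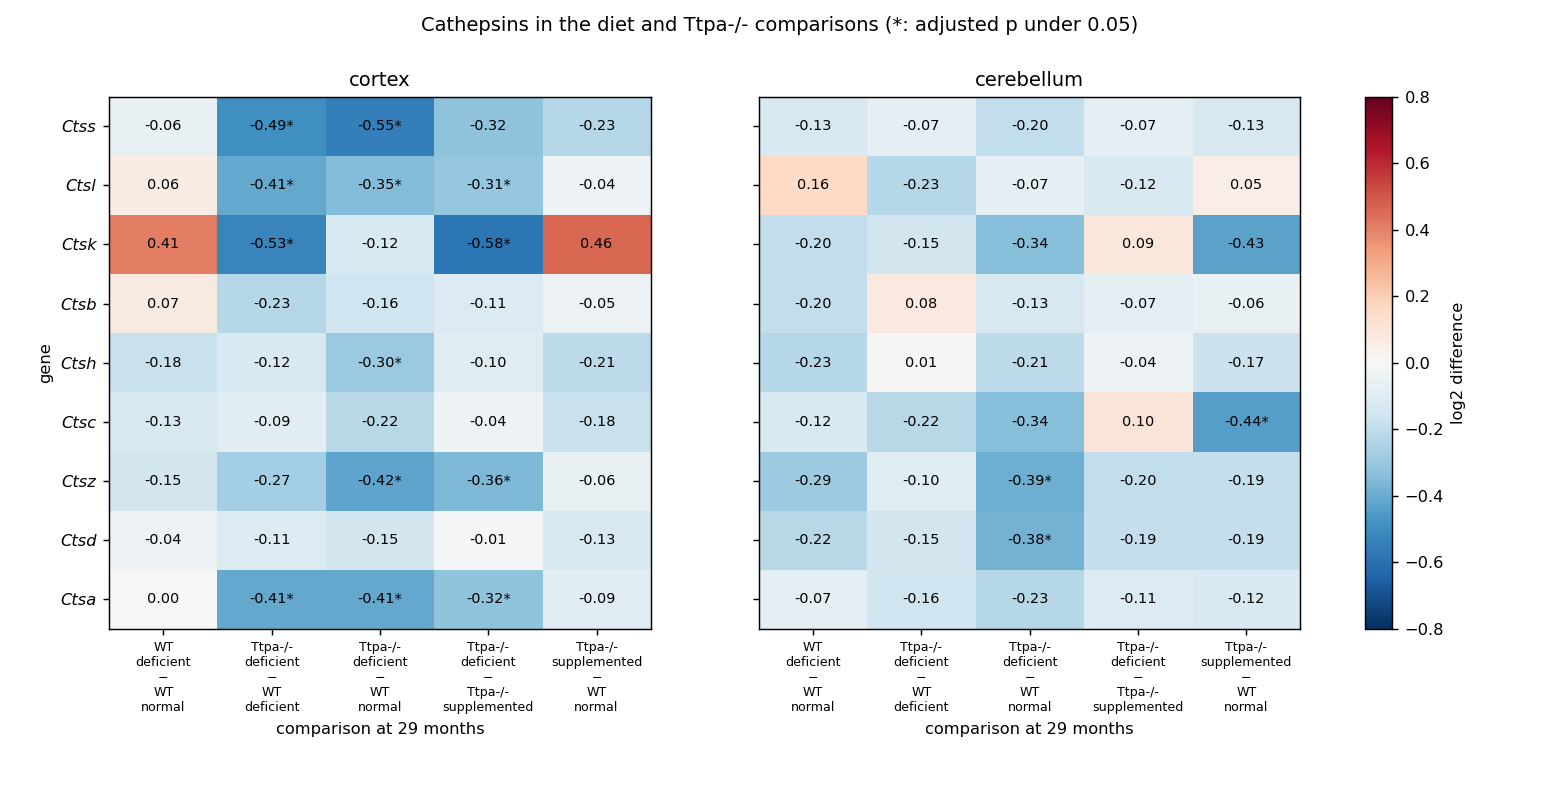
Log2 differences of the 9 tested cathepsins (rows) in 5 comparisons of diet and Ttpa genotype at 29 months (columns), for cortex and cerebellum, coloured from blue (lower) to red (higher), with a star where the adjusted p was under 0.05. The Ttpa-/- deficient columns of cortex hold most of the stars, and Ctss reaches -0.55 against the normal-diet wild-type group.

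The other genes of the lysosome are described by their counts with age. Of 32 lysosomal hydrolases outside the cathepsins, 4 were called higher in aged cerebellum and 0 in aged cortex, with 0 called lower, and their medians were 0.07 and 0.10. Among them, Gusb, beta-glucuronidase, was at 0.74 in cerebellum (limma adjusted p = 7.26e-09), Man2b1, lysosomal alpha-mannosidase, at 0.76 (adjusted p = 7.66e-08) and Acp5, tartrate-resistant acid phosphatase, at 1.92 (adjusted p = 0.0203), with an SD of 1.78 among the 4 aged arrays of Acp5. Among 23 lysosomal membrane proteins and cofactors, 2 were called higher in cerebellum and 1 in cortex. They were Cd68, a membrane protein of the phagocyte lysosome, at 2.99 in cerebellum (adjusted p = 1.22e-11) and 0.93 in cortex (adjusted p = 0.0124), and Laptm5, a lysosomal membrane protein of blood-derived cells, at 1.65 in cerebellum (adjusted p = 1.66e-09) and 0.29 in cortex (adjusted p = 0.383). Cd68 was above background on 2 of 4 young cerebellum arrays. Of the subunits of the proton pump that acidifies the lysosome, 0 of 18 tested were called in cortex and 1 of 19 in cerebellum, a share near the 3.99% of all probes called higher there. It was Atp6v0d2, which was not well above background in young cerebellum and was at least 1.39-fold higher in aged cerebellum (adjusted p = 2.31e-07).

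Of 19 listed inhibitors of cathepsins and related proteases, 9 were tested in cortex and 10 in cerebellum, and 2 and 4 were called higher. Cst7, or cystatin F, an inhibitor that reaches the endolysosome and acts on Ctsc among others, was not well above background in either young group. Its mean was -5.05 in young and -0.20 in aged cortex, at least 18.7-fold higher (limma adjusted p = 1.55e-11), and -6.74 and 0.33 in cerebellum, at least 34.6-fold higher (adjusted p = 4.65e-16). In deficient Ttpa-/- cortex, Cst7 was lower than in normal-diet wild-type cortex by 1.43 (adjusted p = 0.00344) and was called. Serpina3n, a serpin against chymotrypsin-like serine proteases, was higher by 2.22 in cortex (adjusted p = 0.001) and 3.54 in cerebellum (adjusted p = 1.96e-07). Serpina3g was at 2.57 (adjusted p = 0.0398) and Serpinb9, a granzyme B inhibitor, at 0.73 (adjusted p = 1.17e-04) in cerebellum. Serpina3n was above background on 3 of 4 and Serpina3g on 2 of 4 young cerebellum arrays.

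Of the 13 other listed cathepsins, 3 were tested in cortex and 4 in cerebellum with age, and 0 were called. Ctsf was at 0.06 in cortex and 0.09 in cerebellum, Ctso at -0.03 and 0.07, and Ctsw, a cathepsin of cytotoxic lymphocytes, at -0.12 and 0.32. Ctsg, a serine protease of neutrophil granules, was at 1.06 in cerebellum (adjusted p = 0.253). Ctsw was called higher in deficient Ttpa-/- than in normal-diet wild-type cortex, by 0.60 (adjusted p = 0.00136), where the 9 cathepsins tested above were all below 0.

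**Figure D4:**
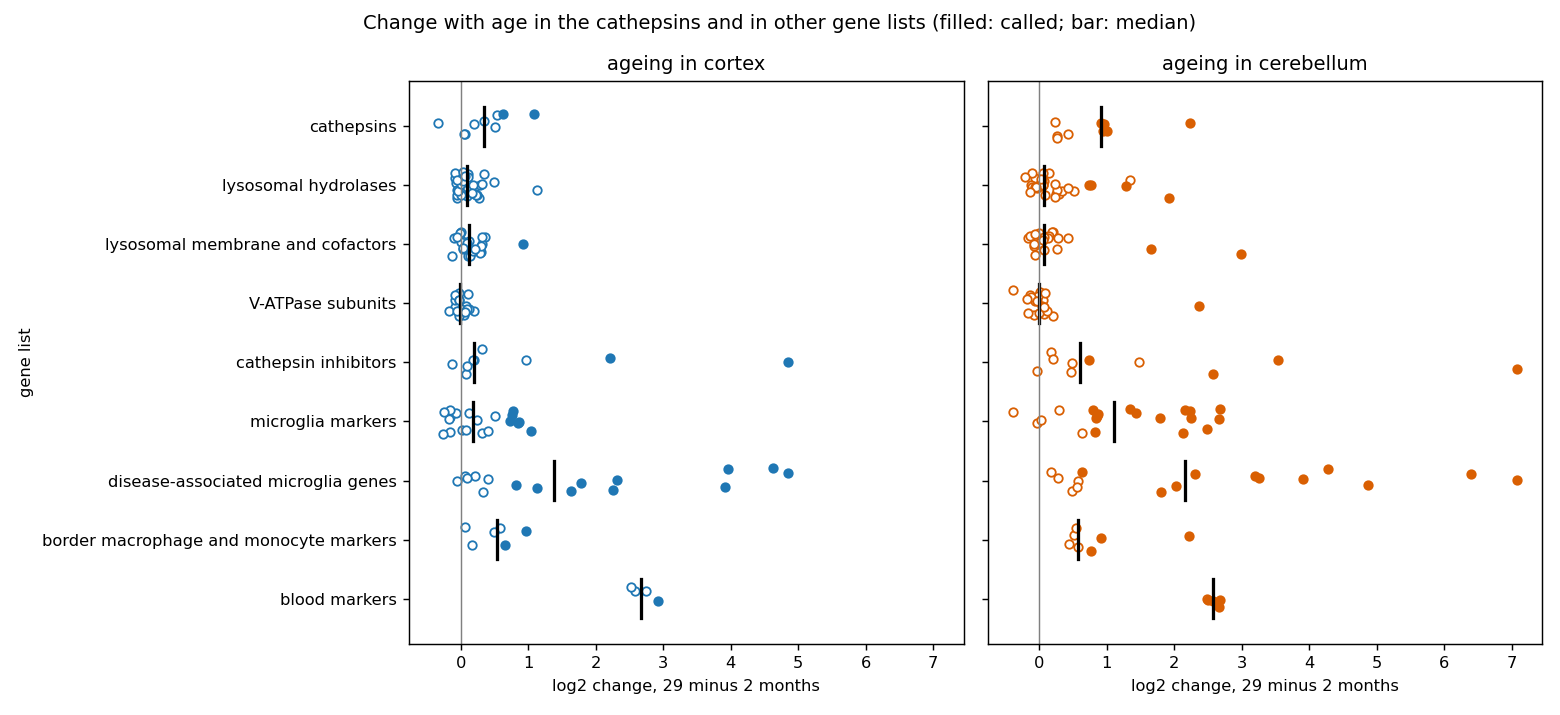
Log2 difference with age (horizontal axis) of each tested gene (points, filled where called) in 9 gene lists (rows), for cortex and cerebellum, with a bar at the median of a list. Cst7, a member of 2 of the lists, is drawn at its fitted value, although it was not above background in the young groups. The cathepsins have medians of 0.34 in cortex and 0.91 in cerebellum, and the lysosomal hydrolases 0.10 and 0.07.

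In aged cerebellum 15 of 20 microglial markers and 11 of 16 markers of disease-associated microglia were called higher, with medians of 1.1 and 2.17, and in aged cortex 6 of 20 and 10 of 16, with medians of 0.19 and 1.38. Their summed linear levels ran from 235 to 256 in young and from 259 to 307 in aged cerebellum for microglia, and from 275 to 342 and 259 to 344 in cortex. For disease-associated microglia, a list that also holds Cst7, they ran from 172 to 181 and 251 to 314 in cerebellum and from 217 to 272 and 271 to 291 in cortex, and Itgax and Cst7 were not well above background in the young groups. In the young brain, where Ctss was higher in cortex, 17 of 20 microglial markers were called higher in cortex, with a median of 1.72. Markers of border macrophages and monocytes were called higher for 3 of 7 genes in cerebellum and 2 of 6 in cortex, with sums of 13.2 to 16.4 in young and 22 to 28.1 in aged cerebellum, and of 12.5 to 18.5 and 18.3 to 20.7 in cortex. Among them, Cd163, Ccr2 and Plac8 were above background on no array of aged cortex or young cerebellum. The part of these cells in the cathepsin changes was not tested.

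Blood markers, which report red cells left in the tissue, summed to 1.74 to 7.32 in young and 18.0 to 40.8 in aged cortex, and to 9.79 to 24.9 and 38.5 to 272 in cerebellum. Neutrophil markers summed to 1.29 to 1.72 and 2.85 to 3.51 in cortex and to 2.35 to 5.83 and 6.60 to 56.4 in cerebellum, and 2 of 4 tested were called higher in cortex and 1 of 7 in cerebellum. T cell markers summed to 6.84 to 11.5 in young and 7.44 to 10.3 in aged cortex and to 6.87 to 8.06 and 6.45 to 8.95 in cerebellum, with 0 called. Of these 9 markers, 4 were above background on all arrays of each of these groups, whereas Cd3d, Cd3g, Cd8a, Cd8b1 and Gzmb were so on no array of the young groups or aged cortex. No neuronal or oligodendrocyte marker was called with age in either region, and of 10 astrocyte markers 1 was called higher in cortex and 2 in cerebellum. Of 9 choroid plexus markers, 3 were called lower in aged cerebellum, with a median of -2.08, where 317 of 30627 probes were called lower. Of 8 striatal markers 3 were called lower in aged cortex, with a median of -0.81, where 140 of 28043 probes were. The part of these tissues and cells in the cathepsin changes with age was not tested. In deficient Ttpa-/- cortex, 5 of 16 disease-associated microglial markers, 1 of 20 microglial markers and 2 of 10 oligodendrocyte markers were called lower than in normal-diet wild-type cortex, with medians of -0.45, -0.30 and -0.57. Against supplemented Ttpa-/- cortex, 4 oligodendrocyte markers were called lower and 0 microglial ones. Of all tested probes, 464 of 28913 were called lower against normal-diet wild-type cortex and 382 of 29077 against supplemented Ttpa-/- cortex. The part of these cell types in the lower cathepsin values was not tested. Aged cortex replicate 4 was the lowest of its 4 arrays for 8 of the 10 cathepsins and for 17 of 20 microglial markers.

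Likeness between genes was described by Pearson's r over the 10 group means. Among the 5 cathepsins called with age, r ran from 0.545 for Ctsc and Ctsz to 0.976 for Ctsh and Ctss, with 0.970 for Ctsd and Ctsh and 0.762 for Ctss and Ctsz. Pairs of cathepsins that were not called lay between -0.340 for Ctsa and Ctsl and 0.839 for Ctse and Ctsl, where Ctse was mostly under background. Among 17990 other genes above background on all 40 arrays, those most like Ctss were Mpeg1 (r = 0.987), Sp110 (0.986) and Myo1f (0.983). For Ctsd they were Tyrobp (0.982), Mpeg1 (0.972) and Trem2 (0.969), and for Ctsh Cd52 (0.977), Uba7 (0.974) and Mpeg1 (0.973). Plek (0.972), Lyz1 (0.969) and Ms4a7 (0.965) were most like Ctsz, and Anxa3 (0.977), Ccl6 (0.965) and Arpc1b (0.960) most like Ctsc. The 5 cathepsins were picked by their call with age, and the 10 means include the groups that gave it. Their likeness to each other and to other genes that change with age is therefore no independent result. The group means share arrays, slides and regions, and these coefficients are descriptions across 10 points.

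Ctsb was the steadiest of the 9 tested cathepsins. Its group means spanned 0.36 on the log2 scale, with a median SD of 0.09 within groups, and Ctsa followed with a span of 0.54. Ctss spanned 2.27 with a median SD of 0.19, and Ctsz, Ctsh, Ctsc and Ctsd spanned 1.01, 1.0, 0.99 and 0.96. Ctsk combined a span of 0.72 with a median SD of 0.19.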

How the data were processed

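RNA of cortex and cerebellum (mirVana kit, Cy3) was hybridised by the authors, 4 mice per group according to the methods, and groups were taken from the sample titles. The deposited intensity columns are those of Agilent Feature Extraction (10.7.3.1, per the file headers), with background-subtracted processed signals, and 47 of the 61 columns were not used. The authors also deposited a value table on the log2 scale, which matched the log2 processed signal less the 75th percentile of each array (median absolute difference 0.000915). The stated scaling to that percentile was followed: control spots and outlier-flagged spots were left out, spots of a probe were averaged, and 92 of 55681 probes were dropped.

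Groups were compared with limma (3.58.1, R 4.3.3) with 10 group means and no block. A probe was tested where all 4 arrays of a compared group had it well above background, with Benjamini-Hochberg adjustment over all of them. The number of arrays limits the precision, and p-values measure the spread between arrays. Replicate numbers were not used as pairs in this fit, since the labels name no pairing between groups. All 4 correlations of same-numbered arrays exceeded 0.1 only for deficient against supplemented Ttpa-/- cortex (0.102 to 0.45). Those correlations do not establish a pairing, and single ones reached 0.639 in Ttpa-/- cerebellum. The steps were tested on simulated data. Each bound sets the bright group's mean against, per dim array, the higher of the probe's own signal and the lowest signal well above background.

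All 10 cathepsins are named. From the lysosomal and inhibitor lists, up to 4 called genes with the largest change with age are named, with Ctsf, Ctso, Ctsw and Ctsg, and the 3 genes most like each cathepsin called with age. Some genes that this rule names are not reported here. Of 254 listed genes, 247 were on the array. The members and lists were chosen with earlier results of these data known. The alternatives were other scalings, background corrections, probe filters, blocks, tests, array weights and single arrays left out.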

Additional observations from a re-analysis of the deposited data

Results flagged for a closer look

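10 of 120 sets of 4 arrays (a probe in a group) had a highest or lowest array whose gap to the next exceeded the 95% critical value of Dixon's ratio, where chance gives about 1 in 20. In cerebellum, the second Ctsa probe read -1.55 in young replicate 4, -1.54 in aged normal-diet replicate 4 and -1.26 in deficient Ttpa-/- replicate 2, each above its group. Ctsc read -1.92 in young cerebellum replicate 1, one of the arrays apart in choroid plexus markers, above the others. Ctsd read 5.44 in deficient wild-type cerebellum replicate 2, under the others, Ctsh 2.55 in supplemented Ttpa-/- cerebellum replicate 2 and Ctsl 5.12 in aged normal-diet cerebellum replicate 4, both above the others. In cortex, deficient Ttpa-/- replicate 4 was high for Ctsb at 5.92 and low on the second Ctsd probe at 2.16, and aged normal-diet replicate 4 was low for Ctse at -6.73, where Ctse was not above background.

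The increase with age was smaller in cortex than in cerebellum for Ctss, with an interaction of -1.16, and for Ctsd, with -0.62. In supplemented Ttpa-/- against normal-diet wild-type mice, Ctsk was at 0.46 in cortex and -0.43 in cerebellum, with arrays apart in opposite directions. Neither value passed (limma adjusted p = 0.377 and 0.0935). Of tested probes, 863 of 28268 were higher without overlap in cortex and 3747 of 31265 lower in cerebellum. The difference between regions in Ctsk was not tested.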

How the results depend on the processing

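Of 3546 values of single cathepsins under other settings, 3360 kept their direction and their side of the threshold, 110 moved, 53 gained and 23 lost the call, and 0 reversed. In aged cerebellum the 5 calls (Ctss, Ctsh, Ctsd, Ctsz and Ctsc) were kept under all 22 settings, and Ctss in aged cortex under all 23 (0.99 to 1.23). Ctsz in aged cortex kept its call under 16 of 23 settings (0.55 to 0.83). The number of cathepsins called with age in cortex was 1 with median scaling, with the compared groups fitted alone, with the slide as a block and with the methods' t-test after Benjamini-Hochberg adjustment, 4 with no fold threshold, and 1 to 4 with single arrays left out. The interaction of age and region called 0 with median scaling (Ctss at an adjusted p of 0.0565), 1 with array weights, with the compared groups alone, with the mean of all probes and without the arrays apart in choroid plexus markers (a setting chosen after seeing the data), and 1 to 2 with single arrays left out. Between the regions at 2 months the count was 1 with quantile normalization, normexp or array weights, 7 with no fold threshold and 1 to 2 with single arrays left out, and at 29 months it was 1 (Ctse) with no filter on dim probes and 3 with no fold threshold. Deficient Ttpa-/- against normal-diet wild-type cortex gave 1 (Ctss) with array weights or without the choroid plexus arrays, 5 with no fold threshold and 0 to 1 with single arrays left out, and in cerebellum 1 (Ctse) with no dim filter and 2 with no fold threshold. In the other cortical comparisons of deficient Ttpa-/- mice, array weights gave 1 (Ctsk) and no fold threshold 4, against either deficient wild-type or supplemented Ttpa-/- mice, leaving out the choroid plexus arrays gave 1 in the latter, and single arrays 0 to 1. Deficient against supplemented Ttpa-/- cerebellum gave 1 (Ctse) with unadjusted p from limma or the methods' t-test and with the mean of all probes, and 0 to 1 with single arrays left out. Supplemented Ttpa-/- against normal-diet wild-type cerebellum gave 1 (Ctsc) with no fold threshold. The causes were not tested. With the replicate block, the counts stayed at 2 and 5 with age in cortex and cerebellum, and no other call changed. In the labels, same-numbered samples share only a number. Median scaling moved the median of all probes by over 0.1 in 4 comparisons. The shift was -0.18 for diet in wild-type cerebellum and 0.18 for genotype on the deficient diet in cerebellum. It was 0.11 for deficient against supplemented Ttpa-/- cortex and -0.12 for supplemented Ttpa-/- against deficient wild-type cortex. The cathepsin medians were -0.20, -0.15, -0.31 and -0.09 in that order, and all but -0.31 were close in size to the shift. For diet in wild-type cerebellum and for supplemented Ttpa-/- against deficient wild-type cortex, shift and cathepsin median had the same sign. Median scaling thus moved those values further below 0. For genotype on the deficient diet in cerebellum and for deficient against supplemented Ttpa-/- cortex, the signs were opposite. The slide block could be fitted in 4 comparisons, and the t-test was not run for the interaction. Ctse is limited by signal over background.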
